A study of Mus musculus with 9 samples.

Results

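Barx1, Tnfrsf26, Sdk2, Tbx4, Frk, 2200002D01Rik, 2010300C02Rik, Pdpn, Efemp1 and Renbp are 10 of the 54532 mouse genes measured by RNA sequencing in cardiosphere-derived cells. They were picked by name because their read counts were near 0 or far below the primary level in immortalized cells. Their fall from primary to immortalized cells therefore chose them and is given only as a description. The question for these genes was which of them came back in cells given SB431542, a small molecule that blocks the kinase of the type I receptor for TGF-β.

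All 9 libraries came from C57BL/6 mice, with 3 libraries in each of 3 groups. The P0 libraries are primary epicardium-derived cardiosphere-derived cells (pECDCs), untreated. The P30 libraries are the same kind of cell carrying hTERT (iECDCs), a human telomerase subunit delivered by lentivirus with drug selection, untreated at passage 30. The SBT libraries are labelled as iECDCs at passage 30 given SB431542 for 3 days. The study's methods instead describe the SB431542 cells as an epithelial clone derived from pECDCs, so a return caused by the drug and a different starting culture cannot be told apart here. The study's methods also place pECDCs at a later passage than the label P0 does, and hTERT, drug selection and time in culture are not separated between P0 and P30. The study's methods speak of biological replicates, fewer per condition than the libraries here, without saying whether these were separate cultures or animals, so p-values measure only the spread between these libraries.

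The genes encode proteins with different tasks. Barx1 and Tbx4 are a homeobox and a T-box transcription factor, families that set the regional identity of embryonic tissues, Barx1 in the stomach mesenchyme and Tbx4 in the hindlimb and lung mesenchyme. Pdpn encodes podoplanin, a mucin-type membrane glycoprotein of lymphatic endothelium and mesothelial linings that ties the cell surface to the cortical actin cytoskeleton. Sdk2 encodes a sidekick protein, an immunoglobulin-type adhesion molecule, Tnfrsf26 a mouse TNF receptor family member near the decoy TRAIL receptor genes, and Frk a tyrosine kinase related to Src. Efemp1 encodes an extracellular matrix glycoprotein of the fibulin family and Renbp an enzyme that interconverts N-acetylglucosamine and N-acetylmannosamine. Of the remaining pair, 2200002D01Rik is listed by RefSeq with the synonym Imup (immortalization up-regulated protein) and 2010300C02Rik with the current symbol Cracdl.

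The promoters of these genes spanned nearly the whole range of CpG content, a property that the choice of genes did not use. RefSeq gave a promoter window for 9 of the 10 genes, and CpG dinucleotides were counted in the 250 bases before each start on GRCm38.p6. Over all 32851 windows of that length the median count was 6. The windows of Barx1, 2010300C02Rik and Sdk2 held 40, 39 and 38, and 98.7%, 98.4% and 98.1% of all windows held fewer. The Frk window held 0 and that of Pdpn held 2, with 18.8% of all windows below Pdpn. The other windows lay between these ends, with 5 in Renbp, 6 in Tbx4, 9 in 2200002D01Rik and 10 in Efemp1. The windows richest and poorest in CpG follow, read 5′ to 3′ and cut where the deposited gene begins, with each CpG in capitals, because they show how unlike the promoters of genes with near-absent reads were. They were chosen by this count among windows of at least 200 bases outside the gene.
Barx1 (chr13:48662786-48662997, plus strand): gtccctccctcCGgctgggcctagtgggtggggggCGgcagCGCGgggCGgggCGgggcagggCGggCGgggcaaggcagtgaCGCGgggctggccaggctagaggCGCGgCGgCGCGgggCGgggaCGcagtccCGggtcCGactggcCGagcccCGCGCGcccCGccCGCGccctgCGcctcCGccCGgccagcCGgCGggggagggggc
Sdk2 (chr11:114067047-114067279, minus strand): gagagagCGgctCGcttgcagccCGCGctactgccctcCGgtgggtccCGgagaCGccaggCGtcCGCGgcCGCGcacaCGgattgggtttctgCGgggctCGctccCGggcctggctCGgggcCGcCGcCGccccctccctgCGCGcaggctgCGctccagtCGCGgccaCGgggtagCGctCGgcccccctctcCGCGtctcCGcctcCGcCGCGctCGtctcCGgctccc
Pdpn (chr4:143299565-143299814, minus strand): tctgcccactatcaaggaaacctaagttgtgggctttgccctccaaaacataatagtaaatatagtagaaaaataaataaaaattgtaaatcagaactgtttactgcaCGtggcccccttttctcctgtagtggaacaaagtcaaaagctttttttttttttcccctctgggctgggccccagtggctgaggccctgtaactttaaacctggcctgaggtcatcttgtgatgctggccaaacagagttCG
Frk (chr10:34483150-34483398, plus strand): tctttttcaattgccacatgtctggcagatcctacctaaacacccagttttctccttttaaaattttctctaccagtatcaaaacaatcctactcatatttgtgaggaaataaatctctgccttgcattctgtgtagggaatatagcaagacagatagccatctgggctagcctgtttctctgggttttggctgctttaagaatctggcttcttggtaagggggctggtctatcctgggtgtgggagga
The shown part holds 31 CpG in Barx1, 36 in Sdk2, 2 in Pdpn and 0 in Frk. Motifs were searched on both strands of the 9 windows. The TATA box letters TATAAA were found in Tbx4 alone, beside 12.4% of all windows, and the AP-1 letters TGANTCA in Efemp1 and 2200002D01Rik, beside 6.75% of all windows. The SMAD letters GTCTAGAC and AGCCAGACA were in none of the 9, and in 0.167% and 0.301% of all windows. The RefSeq start of Tbx4 lies 10343 bases inside the deposited gene, so its window is that of an internal start. That of 2010300C02Rik lies 274 bases inside, so its CpG-rich window also falls wholly within the deposited gene.

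**Figure D1:**
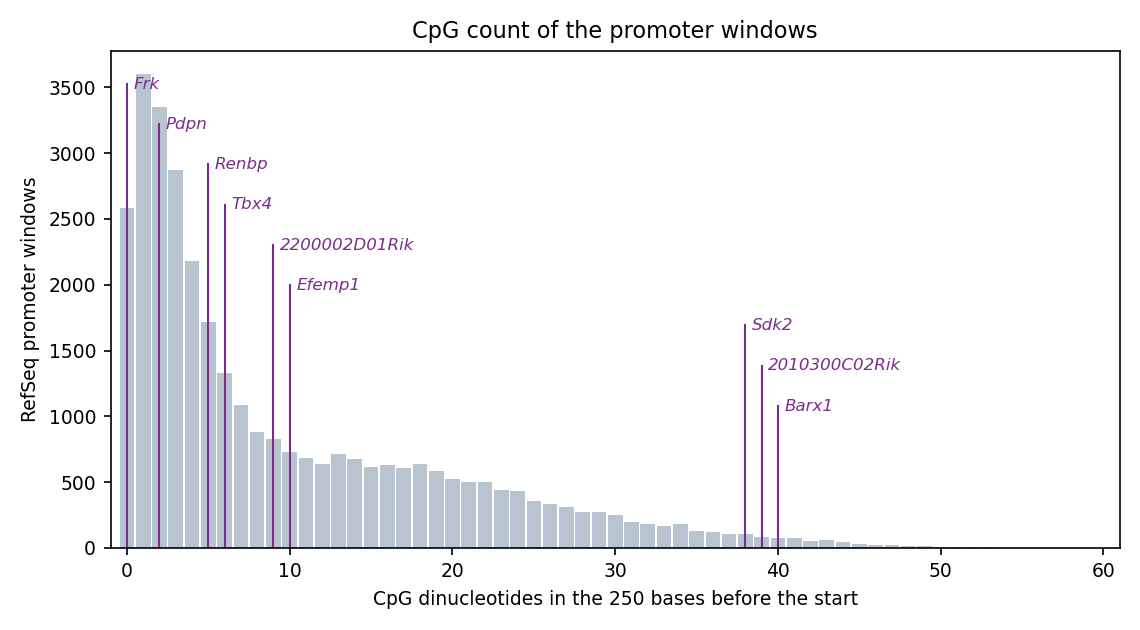
Bars give the number of RefSeq promoter windows (vertical axis) with each count of CpG dinucleotides in the 250 bases before the start (horizontal axis). Vertical lines mark the 9 genes with a window, and 3 of them, Sdk2, 2010300C02Rik and Barx1, stand at 38 to 40, far to the right of the median of 6.

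In P0 the 10 genes were expressed at very different levels per gene length. Mean FPKM, fragments scaled by gene length and library depth, was highest for Pdpn, at 53.5 ± 3.33 (SD, n = 3, as for all values below). Renbp at 13.8 ± 0.251, Efemp1 at 12.5 ± 0.936 and Barx1 at 11.7 ± 0.892 FPKM followed, and the neighbours Efemp1 and Barx1 differed by less than their SDs. Tnfrsf26 stood at 2.97 ± 0.194, 2200002D01Rik at 2.55 ± 0.405 and Tbx4 at 1.26 ± 0.153 FPKM. Frk at 0.721 ± 0.0955, 2010300C02Rik at 0.683 ± 0.0526 and Sdk2 at 0.309 ± 0.0428 FPKM closed the order. Frk and 2010300C02Rik also differed by less than their SDs. These are bulk cultures, so fewer cells using a gene and less RNA per cell cannot be told apart.

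By a floor set in counts, most of the 10 were switched off in P30 and not all. The floor was set at 3 counts, and a gene counted as being at it where no library of the group had more. At the depths here 3 counts correspond to 0.124 to 0.195 CPM, counts divided by the TMM-scaled library total and given per 1000000. Barx1, Tnfrsf26, Sdk2, Tbx4, Frk, 2200002D01Rik and 2010300C02Rik, 7 of 10, were at the floor in P30, whereas Pdpn, Efemp1 and Renbp kept counts above it. Renbp was the least silent by counts, with 49 reads in all P30 libraries. This floor depends on P0 abundance as well as on the fall, and relative levels give another order. The mean P30 CPM was 0.452% of the P0 mean for Pdpn and 0.722% for Efemp1, both above the floor. It was 2.06% for Sdk2 and 3.35% for 2010300C02Rik, the highest of the 10, both at the floor. Among the 12668 tested genes with at least 1 CPM in P0, the 10 ranked between 4 (Tbx4) and 31 (2010300C02Rik) by size of fall. Tbx4 was tied with other genes at 0 counts in P30, so its place among those is arbitrary. In the P30 against P0 fit all 10 were called lower, beside 9.21% of all tested genes, which is how they were chosen.

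In SBT no gene of the 10 regained its P0 level. Level here is the mean CPM as a percent of the P0 mean. All 10 were called lower in SBT than in P0, beside 17% of all tested genes, and none higher, beside 17.9% (edgeR quasi-likelihood test, Benjamini-Hochberg adjusted p from 2.98e-06 for Pdpn to 0.000579 for 2010300C02Rik), and in each gene every SBT library lay below every P0 library. The P0 and P30 libraries served the choice of the genes, whereas the SBT libraries did not. High P0 counts also carried all 10 through the count filter of the SBT against P0 fit. With at least 10 counts required in every library, only 2 of the 10 were tested and called lower. The calls, the lack of overlap and the median fold change are therefore given as a description. The share of all tested genes without such overlap was not counted. None reached 50% of P0, 2 lay between 5% and 50%, and 8 lay under 5%. The median fitted log2 fold change of the 10 was -6.46, beside 0.01 over all tested genes.

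**Figure D2:**
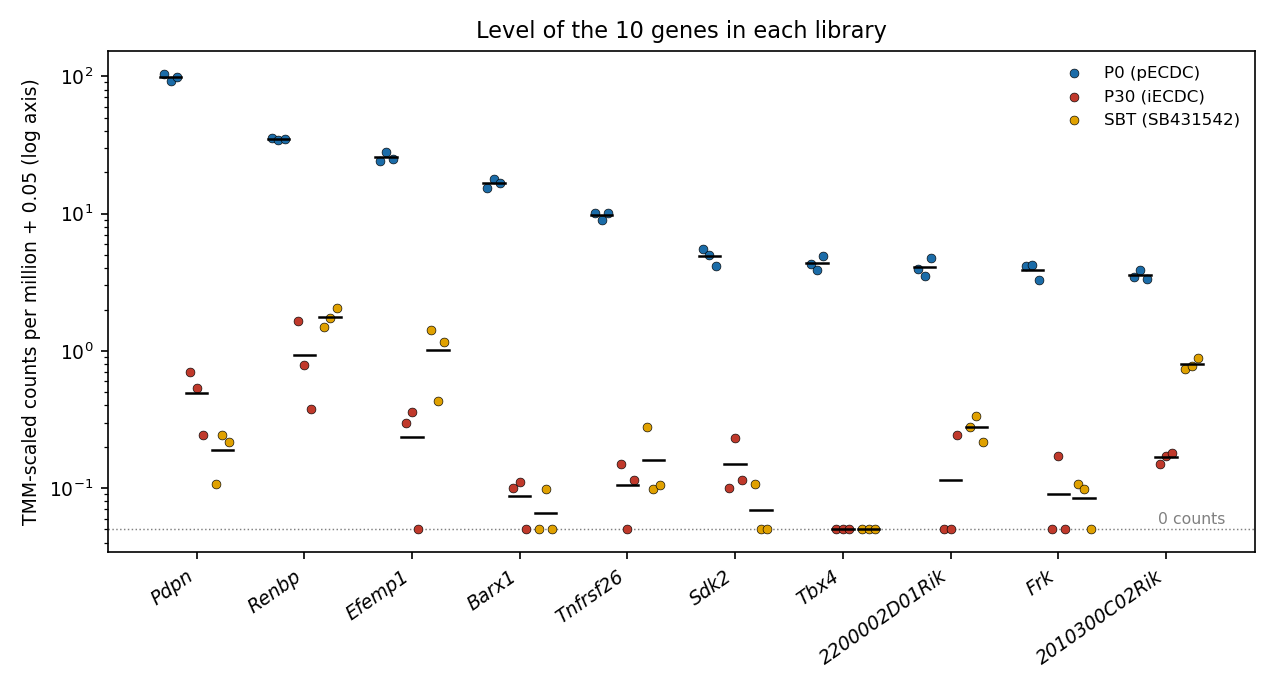
Points give the level of each gene in each library as TMM-scaled CPM plus 0.05 on a log axis, ordered by P0 level, and black bars give group means (3 libraries each). All P0 points stand above all P30 and SBT points of the same gene, and the SBT points of 2010300C02Rik stand above its P30 points.

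2010300C02Rik (chromosome 1, 37611677 to 37720085) was the one gene of the 10 called higher in SBT than in P30. It is a paralogue of a gene for a capping protein inhibiting regulator of actin. Its counts were 83, 75 and 76 in P0 replicates 1, 2 and 3. They were 2, 2 and 2 in P30 and 12, 15 and 15 in SBT. The 3 groups did not overlap, with SBT in between. The SBT level was 21.3% of P0 (libraries 19.6% to 23.8%) and the P30 level 3.35% (2.84% to 3.71%). SBT was higher than P30 by 2.62 ± 0.42 (SE) on the log2 scale (edgeR adjusted p = 0.00425), and lower than P0 by a log2 fold change of -2.21 ± 0.20 (adjusted p = 0.000579). From summed counts SBT was 6.44-fold above P30, with a 95% counting interval of 2.73 to 18.5, which covers counting error only. It was 1 of 10 genes called higher, beside 16% of all tested genes. Only 2 of the 10 passed the count filter of that comparison, so 8 were not tested there and the count says little of them. 2010300C02Rik passed through its SBT counts alone, and its low P30 counts are among those that chose it, so its call is no independent evidence of a rise. No gene of the 10 was called lower, beside 14% of all tested genes.

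Efemp1, the matrix glycoprotein, showed a small rise whose call depended on the fit. It lies on chromosome 11 from 28853204 to 28926743. Counts were 587, 548 and 575 in P0. They were 5, 5 and 0 in P30 and 24, 8 and 20 in SBT. Each SBT library exceeded each P30 library, and the lowest, replicate 2, stood closest to P30. The SBT level was 3.73% of P0, with the libraries at up to 5.36%, against 0.722% in P30, and summed counts were 4.79-fold higher in SBT (95% counting interval 2.41 to 10.6). Efemp1 failed the filter of the SBT against P30 fit. It was called higher with no filter (log2 fold change 2.27, edgeR adjusted p = 0.00590), in the fit of all 9 libraries (2.24, adjusted p = 0.0166), with DESeq2 (2.33, adjusted p = 0.0341) and without SBT replicate 2 (2.66, adjusted p = 0.00572). It was not called without P30 replicate 1, 2 or 3 (adjusted p = 0.127, 0.0981 and 0.1001). In the fits without 1 library Efemp1 passed the filter through its SBT counts alone. Its low P30 counts are among those that chose it, so none of these calls is independent evidence of a rise. Against P0 the SBT libraries were lower by a log2 fold change of -4.75 ± 0.32 (adjusted p = 0.000182).

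Renbp, the amino sugar epimerase on the X chromosome (73922121 to 73930850), kept the most reads in P30. Counts were 861, 674 and 804 in P0. They were 32, 12 and 5 in P30 and 25, 35 and 36 in SBT. SBT and P30 overlapped, because the first P30 library exceeded the first SBT library in CPM as well. The difference of SBT from P30 was 0.90 ± 0.48 on the log2 scale and was not called (edgeR adjusted p = 0.182). It was 1.66 without P30 replicate 1 (adjusted p = 0.0571) and 0.52 without P30 replicate 3 (adjusted p = 0.357). Its level was 4.90% of P0 in SBT (4.11% to 5.76%) and 2.54% in P30 (0.933% to 4.58%). SBT remained below P0 by a log2 fold change of -4.33 ± 0.13 (adjusted p = 1.1e-05).

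2200002D01Rik, which lies on chromosome 7 (29246561 to 29248466), had few reads outside P0. Counts were 95, 68 and 109 in P0. They were 0, 0 and 3 in P30 and 4, 6 and 3 in SBT. The third library of P30 and that of SBT held equal counts, and the ranges of the groups overlapped in CPM. The SBT level was 5.66% of P0 against 1.61% in P30, and no fit called the difference (adjusted p = 0.270 with no filter and 0.107 with all 9 libraries). This gene overlaps Yif1b on the opposite strand, which had 1092 to 1366 counts in SBT, and the sources used here do not state whether reads were counted by strand, so reads of both genes cannot be told apart. Without SBT replicate 2 its level was 4.91% of P0, under the 5% line.

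Pdpn, the gene with the highest P0 level of the 10, did not rise. It lies on chromosome 4 from 143267431 to 143299564. Counts were 2534, 1816 and 2264 in P0. They were 13, 8 and 3 in P30 and 1, 4 and 3 in SBT. All SBT libraries lay below all P30 libraries in CPM, by a narrow margin between the third P30 and the second SBT library. The P30 level was 0.452% of P0 and the SBT level 0.141%. Summed counts in SBT were 0.307 of those in P30 (95% counting interval 0.119 to 0.706), and the log2 fold change was called lower only in the fit of all 9 libraries (-1.65, edgeR adjusted p = 0.0218), not with no filter (-1.64, adjusted p = 0.113) or DESeq2 (-1.68, adjusted p = 0.213). Against P0 the level in SBT was lower by a log2 fold change of -9.36 ± 0.19 (adjusted p = 2.98e-06).

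The transcription factor genes Barx1 and Tbx4 stayed at the floor. Barx1 (chromosome 13, 48662998 to 48666507) had counts of 369, 349 and 385 in P0. It had 1, 1 and 0 in P30 and 0, 1 and 0 in SBT. Tbx4 (chromosome 11, 85886422 to 85916097) had 102, 76 and 113 in P0 and 0 in all P30 and all SBT libraries. For both genes P0 stood apart from the other groups, which overlapped. From summed counts Barx1 was 426-fold lower in P30 than in P0 (95% counting interval 118 to 3521) and 925-fold lower in SBT (166 to 36583). Against a floor of 3 counts per library Tbx4 was at least 24.5-fold lower in P30 and at least 26.8-fold lower in SBT. Both differed between SBT and P0 in the fit (edgeR adjusted p = 2.51e-05 for Barx1 and 0.000485 for Tbx4), and no fold between SBT and P30 is given because both groups were at the floor.

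The adhesion, kinase and receptor genes Sdk2, Frk and Tnfrsf26 also had no rise that could be seen at this depth. Sdk2 (chromosome 11, 113776374 to 114067046) had counts of 132, 97 and 95 in P0. It had 1, 3 and 1 in P30 and 1, 0 and 0 in SBT. Frk (chromosome 10, 34483399 to 34611278) had 99, 82 and 75 counts in P0. Its counts were 0, 2 and 0 in P30 and 1, 1 and 0 in SBT. Tnfrsf26 (chromosome 7, 143607659 to 143628722) had 243, 176 and 232 in P0. Its counts were 2, 0 and 1 in P30 and 4, 1 and 1 in SBT, so P30 and SBT overlapped in all 3 genes. From summed counts the SBT level was 272-fold below P0 for Sdk2 (95% counting interval 48.4 to 10769), 107-fold for Frk (29.4 to 892) and 91.0-fold for Tnfrsf26 (41.6 to 249). The SBT to P30 ratio of Tnfrsf26 was 1.84, with a counting interval of 0.393 to 11.4.

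**Figure D3:**
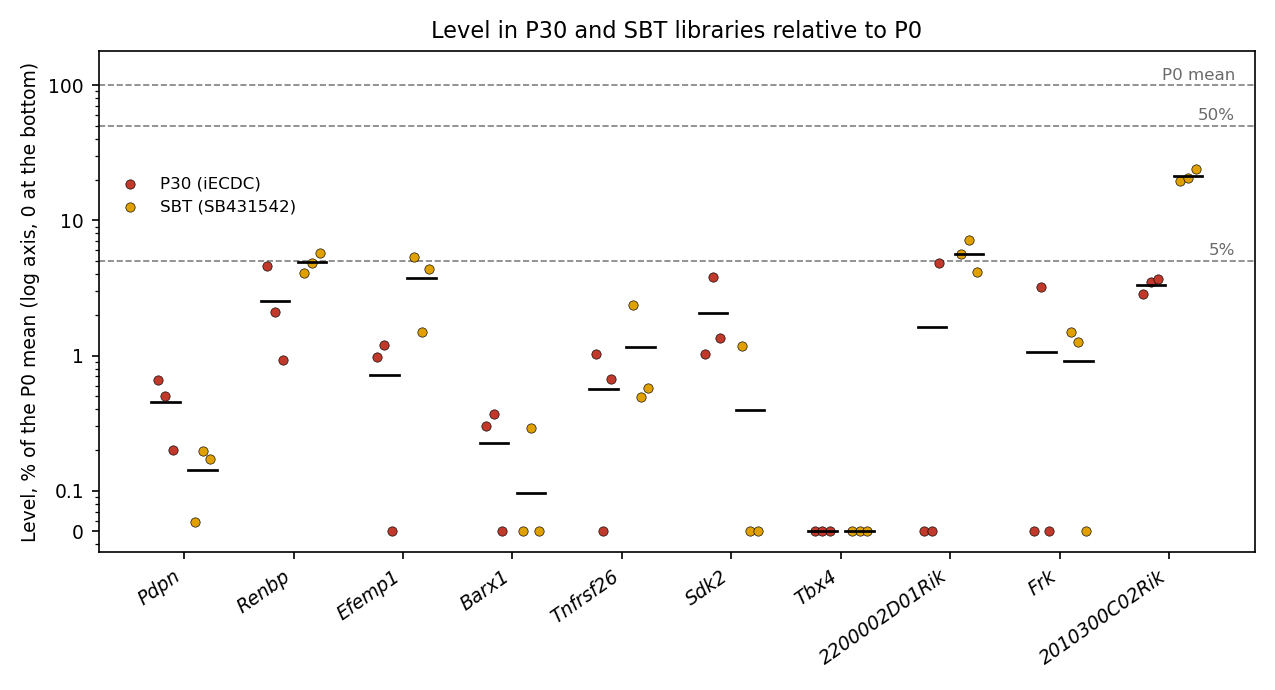
Points give each P30 and SBT library of each gene as a percent of its P0 mean on a log axis, with 0 drawn at the bottom, black bars at the means and dashed lines at 5%, 50% and the P0 mean. 2010300C02Rik is the one gene whose SBT libraries all stand well above 5%, and Tbx4 is at 0 in all 6 libraries.

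Genes beside the 10 on the chromosome showed no fall of this size in P30. For each of the 10, the nearest 2 tested genes on each side were taken by start position, which gave 40 neighbours. Genes that failed the count filter were passed over, so some neighbours lay far off, up to 2363 kb for Hdac2 from Frk. In P30 against P0, 4 of the 40 were called higher, beside 7.21% of all tested genes, and 1 was called lower, Tspyl4 beside Frk, where 9.21% of all tested genes were called lower (log2 fold change -0.61 ± 0.18, edgeR adjusted p = 0.0460). Their log2 fold changes ran from -0.96 to 0.87 with a median of 0.02. The number called lower was 5 without P30 replicate 3, 3 without P30 replicate 2 and 0 without any one P0 library.

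The clusters around Tnfrsf26 and Tbx4 hold close relatives. Tnfrsf22, a decoy TRAIL receptor gene 6.08 kb from Tnfrsf26, rose from 3.13 ± 0.244 FPKM in P0 to 4.01 ± 0.244 in P30 (log2 fold change 0.35 ± 0.10, adjusted p = 0.0462). Tnfrsf23, the next relative, had 15.4 ± 0.666 FPKM in P0 and 12.2 ± 2.64 in P30 (adjusted p = 0.121) and fell in SBT to 5.79 ± 0.591 (SBT against P30 log2 fold change -1.06, adjusted p = 0.00473). Tbx2, a T-box gene 44.5 kb from Tbx4, had 1.84 ± 0.217, 2.13 ± 0.276 and 1.70 ± 0.0612 FPKM in P0, P30 and SBT, and no comparison called it (adjusted p = 0.363 for P30 against P0). Naa10, an acetyltransferase subunit gene that lies 0.177 kb from Renbp, had 2.95 ± 0.198 FPKM in P0 and 3.15 ± 0.471 in P30 (adjusted p = 0.711). Of the 4 neighbours of 2010300C02Rik, only Mgat4a, a glycosyltransferase gene 70.7 kb away, was called higher in SBT than in P30 (1.29 ± 0.25 on the log2 scale, adjusted p = 0.00893). Of all 40 neighbours, 6 were called higher and 4 lower in that comparison, beside 16% and 14% of all tested genes. Nothing is therefore read from the place of Mgat4a beside 2010300C02Rik.

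**Figure D4:**
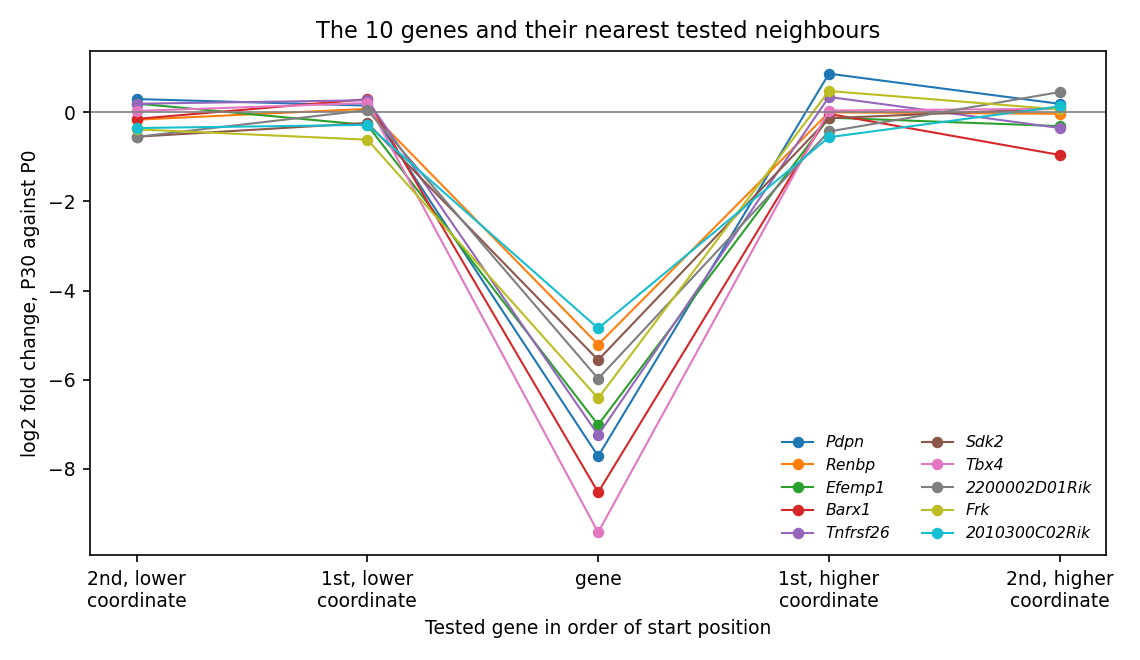
Each line joins the log2 fold change of P30 against P0 (vertical axis) of one of the 10 genes, in the middle, to those of its nearest 2 tested genes at lower and higher coordinates (horizontal axis). The middle points lie between -9.42 and -4.85, and the 40 neighbours between -0.96 and 0.87.

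Genes related by family or pathway were looked up from lists, to see how many moved with the 10. Of 10 T-box, homeobox and associated genes, 7 were tested and 2 fell in P30 against P0, beside 9.21% of all tested genes, Tbx3 by -0.85 and Tbx5 by -0.50 on the log2 scale (edgeR adjusted p = 0.00114 and 0.0162). Tbx18, an epicardial T-box factor, had 19.6 ± 0.638 FPKM in P0 and 22.4 ± 3.19 in P30 (adjusted p = 0.257). Of 6 tested podoplanin partners, only Lgals8 fell in P30 (-0.29), beside 9.21% of all tested genes. In SBT against P30 the actin linkers Msn (-1.16) and Rdx (-0.46) and the hyaluronan receptor Cd44 (-1.66) were called lower, beside 14%. None of those 6 was called higher in either comparison, where 7.21% and 16% of all tested genes were, so little is read from that.

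Members of the family of Efemp1 were called in both directions in SBT against P30, where 16% of all tested genes were higher and 14% lower. Of 6 tested fibulin list genes, Fbln1 (1.14) and Fbln7 (2.57) were called higher in SBT than in P30 and Fbln2 (-1.89) and Timp3 (-1.17), a metalloproteinase inhibitor that binds the Efemp1 protein, lower, in log2 units. Efemp2, a close relative of Efemp1, held 114 FPKM in P0, 138 in P30 and 137 in SBT and was called in neither comparison with P30. In P30 against P0, Fbln5 and Timp3 were called lower, 2 of 5 tested, beside 9.21% of all tested genes.

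Relatives of Frk and Tnfrsf26 were few, and 9.21% of all tested genes were called lower in P30 against P0, so little is read from counts of 0 among them. Of 6 tested Src family list genes none was called lower and Fyn was called higher (0.26, adjusted p = 0.0325), and in SBT against P30 Lyn (-0.47) and Csk (-0.36) were called lower. Of 10 tested TNF receptor list genes none was called lower and 3 higher in P30, beside 7.21% of all tested genes called higher, namely Tnfrsf22, Tnfrsf12a and Tnfrsf21. In SBT against P30, 6 of 11 tested were called lower, beside 14% of all tested genes, among them Tnfrsf11b, the decoy receptor for RANKL (-2.71, adjusted p = 0.000315), and 2 higher, beside 16%.

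Amino sugar and sialic acid enzymes, the pathway of Renbp, were all measured well enough to test. In P30 against P0, 4 of 15 were called lower, beside 9.21% of all tested genes, Pgm3, Uap1, Gfpt1 and Gfpt2, all enzymes on the route to UDP-N-acetylglucosamine, with log2 fold changes from -0.57 to -0.33, and Nans was called higher (0.29). In SBT against P30, 5 of 15 were lower, beside 14% of all tested genes, and Amdhd2, an N-acetylglucosamine 6-phosphate deacetylase, was higher (log2 fold change 1.056). In P30 against P0, none of the 15 changed as far as Renbp, which was chosen for its fall, so nothing is read from that.

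A relative of Sdk2 fell as well. Sdk1, the other sidekick gene, had 19 to 24 counts in P0, 0 to 1 in P30 and 1 to 4 in SBT, and was called lower in P30 than in P0 (adjusted p = 0.00134) and in SBT than in P0 (adjusted p = 0.00562). Dscam, another immunoglobulin-type adhesion gene, moved the other way, from 0.0104 FPKM in P0 to 0.241 in P30 and 1.57 in SBT (P30 against P0 log2 fold change 4.44 ± 0.53, adjusted p = 0.000767). In the list of 6 sidekick relatives and partners, 2 of 5 tested rose and 2 fell in P30 against P0, beside 7.21% and 9.21% of all tested genes. Of 4 tested relatives of the pair of Rik genes, C530008M17Rik and the actin capping gene Capzb were called higher in P30 and none lower. In SBT against P30, 3 of 5 tested were called lower, beside 14% of all tested genes, and 0 higher, beside 16%. These were the capping genes Capza1 (-0.31), Capza2 (-0.35) and Capzb (-0.42 on the log2 scale). Spint2, the protease inhibitor gene listed for 2200002D01Rik, had at most 0.134 FPKM in any group mean.

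A wider set shows whether low SBT levels were usual for genes that fell this far. With a P0 mean of at least 1 CPM and a P30 mean at or under 1/16 of it, 44 genes were found, 39 of them protein-coding, and all 10 belonged to them. Just inside the limit stood Dock10 at 16.03-fold and just outside Cygb at 15.5-fold. Of the 44, 14 passed the filter of the SBT against P30 fit and 11 were called higher, which is 25% of the 44, beside 16% of all tested genes. Most such genes could pass the filter only through their SBT counts, so nothing is read from that share. By level in SBT, 8 of the 44 reached 50% of P0, 12 lay between 5% and 50% and 24 lay under 5%. The median level was 1.03% for the 10 and 5.60% for the other 34, and the 8 genes that reached 50% were all among the other 34.

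Of the other 34 genes, the 10 with the highest P0 FPKM fell into different patterns. Rerg, a Ras-like GTPase gene, had 2.73 ± 0.185 FPKM in P0, 0.0458 ± 0.0642 in P30 and 5.35 ± 2.19 in SBT, and its SBT level exceeded P0 (log2 fold change 0.97 ± 0.30, edgeR adjusted p = 0.0433). Anxa8, an annexin, had 15.9 FPKM in P0, 0.814 in P30 and 3.10 in SBT, and was called higher in SBT than in P30 (1.95, adjusted p = 0.0104). Il33, an alarmin cytokine, reached 8.83% of P0 in SBT and failed the filter. Cdkn2a and Cdkn2b, the neighbouring cell cycle inhibitor genes, had 407 to 562 and 181 to 188 counts in P0, at most 1 in any P30 library and 0 in all SBT libraries. Gpx3, Fam189b, Mdk and Dlx2 had SBT levels of 3.94%, 4.76%, 1.31% and 3.62% of P0, and the cardiac homeobox gene Nkx2-5 was at 0 counts in P30 and SBT alike. Bnc1, a mesothelial zinc finger gene on the marker list, had 52 to 54 counts in P0, 0 to 3 in P30 and 26 to 35 in SBT.

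**Figure D5:**
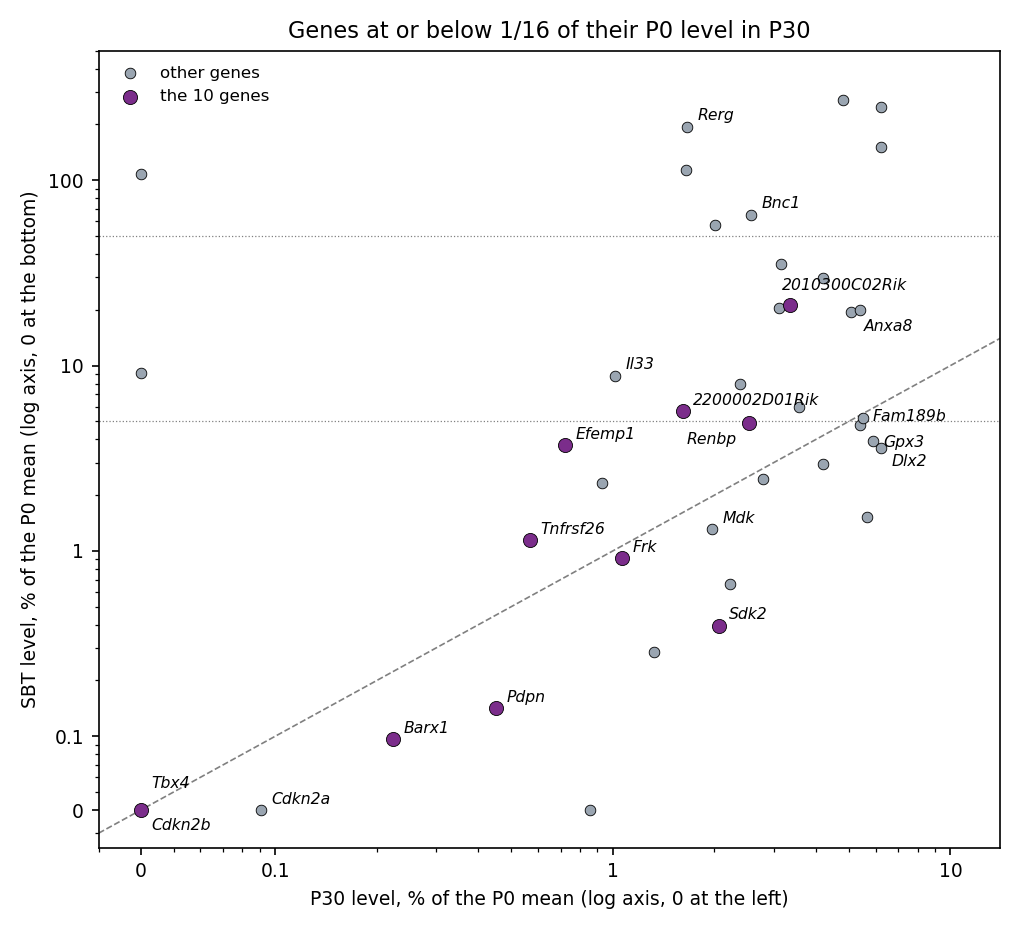
Each point is one of the 44 genes at or under 1/16 of its P0 level in P30, with its P30 level (horizontal) and SBT level (vertical) as a percent of the P0 mean on log axes, 0 drawn at the edge, a dashed line of equal levels and dotted lines at 5% and 50%. The 10 genes (large points) all lie under 50%, Rerg and Bnc1 lie above it, and 5 genes including Tbx4 share the point at 0 in both groups.

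The genes most alike in pattern were found by Pearson's r of log2(CPM + 1) over the 9 libraries, among all tested genes. The partner was Cdkn2b for Barx1 (r = 0.9997), Cdkn2a for both Tbx4 (0.999) and Tnfrsf26 (0.998), and Sdk2 and Frk were partners of each other (0.999). Efemp1 paired with Il33 (0.998), Renbp with Efemp1 (0.989), Pdpn with Fam189b (0.999), 2200002D01Rik with Pcdhga11 (0.995) and 2010300C02Rik with Adcyap1r1 (0.996). The 9 points fall into the 3 groups, with P0 far above the rest, so they are not independent and each r is given as a description.

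Facts of the libraries that bear on these values were as follows. Total counts ran from 16568306 to 23951392. P30 replicate 3 and SBT replicate 2 stood apart from the other libraries of their groups, with a chi-square per degree of freedom of 24.9 to 30.8 and 70.3 to 71.6 against them, where other pairs had 2.70 to 4.61. Without P30 replicate 3 the P30 level of Renbp was 3.34% of P0 and that of Efemp1 1.08%, and without SBT replicate 2 the SBT level of 2010300C02Rik was 21.7% and that of Efemp1 4.85%. The TGF-β targets Ctgf, Smad7 and Acta2 were lower in SBT than in P30, with log2 fold changes of -3.36, -1.78 and -2.56 (edgeR adjusted p from 0.00102 to 0.00581), while Tgfbi was higher (3.53). Tagln, a further target looked up with them, was not called (-1.71, edgeR adjusted p = 0.0725). Of all tested genes 14% were called lower and 16% higher there. Summed FPKM of 9 fibroblast markers was 1132 to 1167 in P0, 903 to 1049 in P30 and 769 to 1486 in SBT. That of 14 mesothelial and epithelial markers was 19.998 to 21.1 in P0, 29.3 to 32.1 in P30 and 26.002 to 42.4 in SBT, mostly Krt19, with Muc16 at 0 throughout. In SBT against P30, 5 of these 14 markers were tested and 4 were called higher, beside 16% of all tested genes. These were Upk3b, Wt1, Gpm6a and Bnc1, by 3.45, 4.398, 3.93 and 4.59 on the log2 scale. Of the fibroblast markers 7 were tested there, and 4 were called higher and 0 lower, beside 16% and 14% of all tested genes. Of 5 endothelial and lymphatic markers, cells that also use Pdpn, Lyve1 was at 0 in P30 and SBT, and their sum was 2.11 to 2.25 in P0, 4.21 to 4.31 in P30 and 3.64 to 4.66 in SBT, mostly Flt4. Smooth muscle marker sums were 721 to 744, 817 to 1922 and 139 to 331, mostly Acta2. Sums over 3 blood markers stayed at or under 2.04 FPKM and over 4 cardiomyocyte markers at or under 1.68. The part of these shifts in the levels of the 10 genes was not tested.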

How the data were processed

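The authors deposited, in one table for 9 libraries, whole read counts per gene without normalization, FPKM values and gene lengths. FPKM equalled count over length times a library constant to within 0.1% for all but 1 value, which is of none of the 10 genes. Columns with the authors' own fold changes and p-values were not used, nor was a second table of gene annotations, and 0 per-sample columns were left unmapped. The submitters' processing notes name Bowtie2 2.0.6, TopHat2 2.0.9 and build mm9, whereas the start and end of all 10 genes, and of 53499 of the 54532 genes, match GENCODE release M21 on GRCm38. The counting program and its use of strand are not given in the sources used here. Labels and study methods also name different library kits and sequencers.

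The test used was that of edgeR 4.0.16 under R 4.3.3 (TMM, filterByExpr with minimum count 10 and minimum total 15, glmQLFit and glmQLFTest, Benjamini-Hochberg adjustment over all tested genes, called at an adjusted p under 0.05), with the 2 groups compared in each fit. The tests were tried on simulated counts for SBT against P30, with 200 genes changed by 1 on the log2 scale. There edgeR recovered 160 of the 200 with 8 false calls over 13402 genes, and DESeq2 155 with 15 false calls over 13559 genes. The simulation gave every gene the same spread between libraries, held no outlying library and used only genes that passed the filter. It therefore says little of genes near the floor or of libraries that stand apart. Alternatives were DESeq2 1.42.0, RLE and upper-quartile scaling, other filters, a fit of all 9 libraries, limma 3.58.1 on log2(FPKM + 1) and log2(FPKM + 0.1), a log2 threshold of 1, a replicate block and leaving out each library. Counting intervals are exact conditional binomial intervals on summed counts at 95%. Intervals and floors cover counting error only. Total counts per library ranged from 16568306 to 23951392. Promoter windows were from RefSeq (GRCm38.p6). Tables and figures were made with python, pandas and matplotlib 3.10.9.

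The 10 genes and all lists were chosen with earlier results of these data known. The text names the 10 genes, the 2 nearest tested neighbours on each side, the 10 highest other genes that fell to 1/16, the closest gene by Pearson's r, and members of fixed lists of relatives and markers. One result of a listed gene is not reported here.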

Additional observations from a re-analysis of the deposited data

How the results depend on the processing

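All 10 genes were called lower in SBT than in P0 under each alternative that tested them, and the count was 2 with at least 10 counts in every library, where the others dropped out of the test. The number called higher in SBT than in P30 was 1, and 2 with no filter, all 9 libraries or DESeq2, and 0 with at least 10 counts in every library, which left 2010300C02Rik untested. Without 1 library it ranged from 1 to 2. 2010300C02Rik was called higher in every fit that tested it. The number of the 10 at 5% of P0 or above was 2, and 1 to 3 without 1 library.

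Over all genes the calls were 4061 for SBT against P30, 4881 for SBT against P0 and 2258 for P30 against P0. Asking also for a log2 fold change of 1 left 1434, 1330 and 512. Without 1 library they ranged from 1707 to 7001 (the highest without SBT replicate 2), from 2453 to 9188 (also SBT replicate 2) and from 1036 to 4467 (the highest without P30 replicate 3), and all 9 libraries in the fit gave 671 for P30 against P0. Neighbours called lower in P30 numbered 1, 5 with no filter, 0 with all 9 libraries or with the log2 threshold, and 0 to 5 without 1 library. Of the 44 genes that fell to 1/16, 11 were called higher in SBT than in P30, 18 with all 9 libraries, 1 with at least 10 counts in every library, and 11 to 15 without 1 library. The cause of changes other than the filters was not tested.

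Same-numbered P30 and SBT libraries did not deviate together (r = 0.04, -0.20 and -0.29 across genes), so the numbers were not taken as pairs. With the replicate block 3038, 3886 and 1791 genes were called, and 1 of the 10 was higher in SBT than in P30 and 10 lower than in P0. At these depths 3 counts set the floor, so a return below about that count in Barx1, Sdk2, Tbx4 or Frk could not be seen.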
